A study of Arabidopsis thaliana with 15 samples.

Results

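Untreated Arabidopsis thaliana Col-0 roots were sequenced as 2 separate control groups of 3 libraries each, and the values below compare those groups with each other. The mock group (mock A, B and C) is the control for salt and for flg22, the bacterial flagellin peptide that plants sense through the receptor FLS2. The mannitol control group (mannitol control A, B and C) is the control for mannitol, a sugar alcohol used to lower the water potential. The members are all genes of the deposited count table in these 6 of the 15 libraries of the series, which belongs to a study of the SUMO protein modification system in roots under salt, flg22 and osmotic stress. The table holds 24618 genes, of which 18927 had enough counts to be tested between the untreated groups.

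Both groups are labelled as controls, with no salt, peptide or mannitol, and both are wild type with no transgene named in the labels. The sample labels give seedlings of 6 days and whole seedling as the tissue, whereas the methods of the study describe RNA from pooled roots of such seedlings collected 3 h after treatment. The labels also name a start time point without saying which libraries it covers. For the treated libraries they give 150 mM salt, 300 mM mannitol and 250 nM flg22, and the text of the study names another flg22 dose. For the imaging experiments of the same study, salt and flg22 were given in liquid medium that touched the roots, with a liquid control, and mannitol was given by moving seedlings to plates, with control plates. The seedlings for liquid were a day younger when they were moved. The text on the RNA libraries does not repeat these conditions, so liquid and plate are the set-ups of the imaging experiments carried over to these groups. Medium, handling, age and any batch of growth or sequencing change together between the groups and cannot be told apart. Nothing in the labels says whether libraries A, B and C come from separate cultures, so p-values measure the spread between these libraries only.

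The 6 libraries held between 6094503 and 13943645 counts, with mock A and mock B the shallowest at 6094503 and 6120247. Across genes, the correlation of log2 CPM (counts of a gene per 1000000 counts of its library, scaled by the TMM normalization over these 6 libraries) was at least 0.972 within a group and between 0.886 and 0.910 across groups. A first principal component with 79.0% of the variance separated the groups, and a second with 8.84% separated mock B from mock A and C. Mock B was the mock library nearest to the mannitol control for 57.2% of the genes that were higher there and for 50.6% of those that were lower. Of 11 shoot marker genes in the table, 10 were below the filter, with STOMAGEN, FMA and EPF1 at 0 in all 6 libraries. The sum over all 11 was 11.0 to 17.0 CPM in mock and 5.94 to 8.06 CPM in the mannitol control, most of it from GLK2, a regulator of chloroplast development. The leaf and stomatal markers were thus at or near 0, whichever tissue the label names.

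As background, root gene expression responds to supply and to contact. When sugar runs short, SnRK1 kinases and bZIP factors switch on genes that break down amino acids, sugars and other reserves, and these genes are repressed when sugar is present. Limited sulfur induces reduction of sulfate and genes of the LSU family, and sulfur-rich glucosinolates are both a store and a defence of the Brassicaceae. Water loss works through abscisic acid (ABA) and dehydration factors, while touch, low oxygen and microbial patterns each induce early genes.

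Between the groups, 2534 of 18927 tested genes (13.4%) were differentially expressed genes (DEGs), defined here by an adjusted p under 0.05 in edgeR's quasi-likelihood test and a change of at least 1 on the log2 scale in either direction. Of these, 1249 (6.60%) were higher and 1285 (6.79%) lower in the mannitol control, and fold changes below are the mannitol control over mock unless said otherwise. The median log2 fold change of all tested genes was 0.0042. Without the fold limit 8050 genes (42.5%) passed, 3963 higher and 4087 lower. Changes of at least 3 on the log2 scale were found for 153 higher and 223 lower DEGs. The 3 mannitol control libraries all lay above the 3 mock libraries for 27.4% of tested genes and all below for 26.7%, and for 1246 of the higher and 1274 of the lower DEGs. The higher DEGs together took 3.67% ± 0.383 of all counts in mock and 11.5% ± 0.518 in the mannitol control (SD, n = 3). The lower DEGs took 9.41% ± 1.09 in mock and 2.80% ± 0.140 in the mannitol control. In bulk roots, fewer cells of a type and less RNA per cell cannot be told apart. Without mock B there were 2807 DEGs, 1454 higher and 1353 lower.

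**Figure D1:**
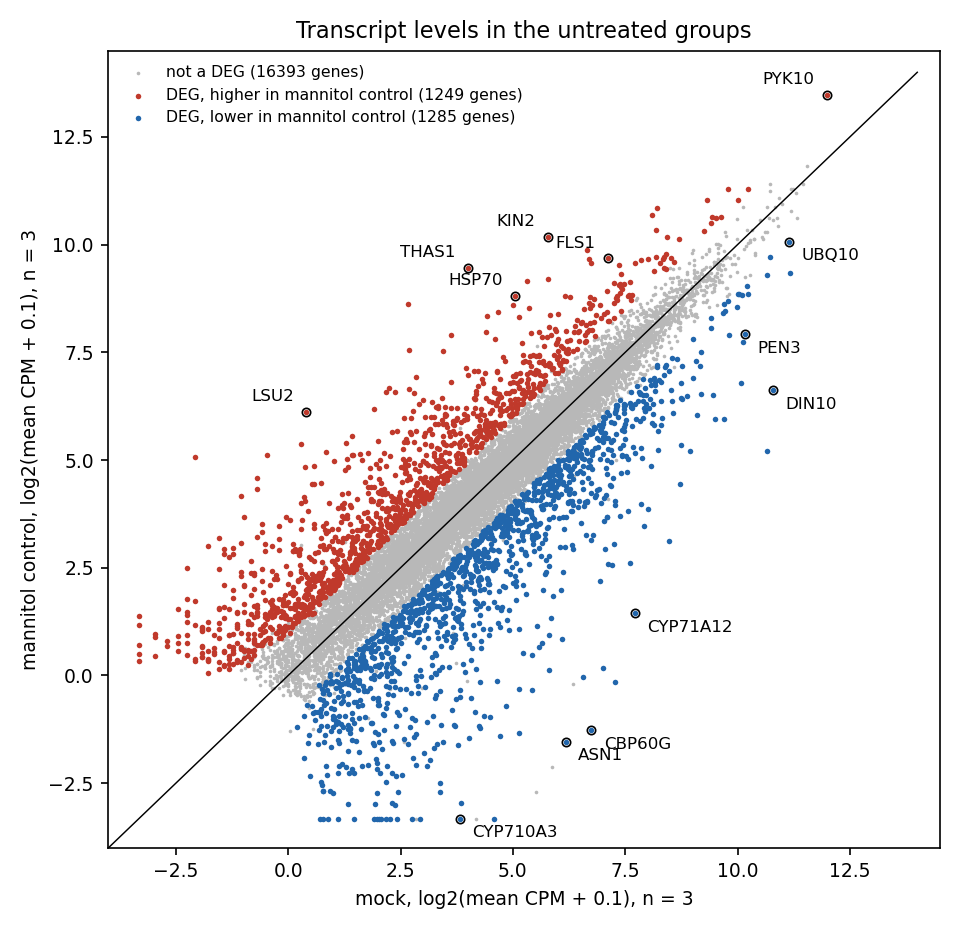
Mean level of each tested gene in mock (x axis) and in the mannitol control (y axis), both as log2(mean CPM + 0.1) over 3 libraries; red and blue points are the 1249 higher and 1285 lower DEGs and the line marks equal levels. KIN2, LSU2, THAS1 and HSP70 lie far above the line, and ASN1, CBP60G and CYP710A3 far below it, while PYK10, the most abundant gene named, lies above it by 1.48 on the log2 scale.

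All 20 tested members of the list of genes induced by sugar starvation were lower in the mannitol control (list median -2.69 on the log2 scale). The background was 6.79% of all tested genes. ASN1, the glutamine-dependent asparagine synthetase that is induced in the dark and repressed by sugar, had 107, 27.2 and 82.4 CPM in mock A, B and C and 0.424, 0.0714 and 0.24 CPM in mannitol control A, B and C. Its log2 fold change was -8.20 (SE 1.02, adjusted p = 0.00388). The groups did not overlap, and mock B was well below mock A and C. SEN1, a senescence-associated gene of the same dark-induced set, had 82.1, 19.5 and 66.1 CPM in mock and 1.02, 0.928 and 1.04 CPM in the mannitol control. DIN10, a raffinose synthase family member, was one of the 10 genes with the largest fall in CPM, at 2347, 829.8 and 2149.7 CPM in mock and 128, 114 and 53 CPM in the mannitol control (log2 fold change -4.17, SE 0.64, adjusted p = 0.00848). In all these genes mock B was the lowest mock library and still lay above every mannitol control library.

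The other members act in several steps of starvation metabolism. DIN2, a beta-glucosidase, had 25.9, 14.7 and 17.3 CPM in mock and 0.679, 0 and 0.32 CPM in the mannitol control. Breakdown of branched-chain amino acids was represented by BCAT-2, MCCA, IVD and DIN4, with log2 fold changes of -2.71, -2.54, -1.40 and -1.29. ERD5, the proline dehydrogenase of mitochondria, fell from 1321, 659 and 1348 CPM in mock to 263, 238 and 144 CPM in the mannitol control. The glutamate dehydrogenases GDH1 and GDH2 had log2 fold changes of -1.08 and -1.39. The transcription factors bZIP1 and BZO2H3, both of which act downstream of SnRK1, had -3.39 and -3.54 on the log2 scale. TPS8, TPS9, TPS10 and TPS11, class II relatives of trehalose phosphate synthase, had values from -2.72 (TPS8) to -1.82 (TPS10) on the log2 scale. Outside the list, AT3G15450, annotated as an aluminum induced protein, was at 2089.9, 789 and 1962 CPM in mock and at 49.6, 41.1 and 19.4 CPM in the mannitol control (log2 fold change -5.46, adjusted p = 0.0039). AT2G33830, a dormancy-associated family member on the list, was at 1110.4, 487 and 882 CPM in mock and 81, 46 and 59 CPM in the mannitol control.

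Mock B was the lowest of the mock libraries for 20 of these 20 genes and mock A the highest for 17. The summed level of the list was 4431 to 9257 CPM over the mock libraries and 1150 to 1633 CPM over the mannitol control libraries. The count of lower members was 18 to 20 when any 1 library was left out.

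Sulfur-deficiency genes moved the other way. Of 16 tested, 13 were higher in the mannitol control and 0 lower (list median 3.32 on the log2 scale) against a background of 6.60% of genes higher. LSU2, a small coiled-coil protein of the family named for its response to low sulfur, had 0.328, 2.44 and 0.904 CPM in mock and 57.8, 67.4 and 84.1 CPM in the mannitol control (log2 fold change 5.90, SE 0.37, adjusted p = 5.81e-05). LSU1 had 0, 1.79 and 0.0821 CPM in mock and 27.6, 34.8 and 40.8 CPM in the mannitol control. LSU3 rested on 3 counts over the mock group and 1283 over the mannitol control, a ratio of 273 with an exact 95% interval of 93.1 to 1323 that covers counting error only. The LSU genes are closely related and lie in neighbouring pairs (LSU3 at chr3:18372404-18373147, LSU1 at chr3:18374908-18375940, LSU4 at chr5:8440601-8441364 and LSU2 at chr5:8443279-8444101 of TAIR10.1), so the split of reads among them is uncertain. Mock B was the highest mock library for 12 of the 13 genes.

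Enzymes and carriers of sulfate assimilation were among these 13. APR3, an adenylylsulfate reductase that commits sulfate to reduction, rose from 32, 54.5 and 32.9 CPM in mock to 518, 579 and 604 CPM in the mannitol control (log2 fold change 3.85, SE 0.23, adjusted p = 0.0001). Its relatives APR1 and APR2 had log2 fold changes of 3.63 and 2.78. The sulfate transporters SULTR2;1 and SULTR4;2, which act in vascular transport and in release from the vacuole, had 3.08 and 2.66 on the log2 scale. ATSDI1, a tetratricopeptide repeat protein induced by sulfur deficiency and known to repress glucosinolate synthesis, had 0.493, 0.814 and 0.246 CPM in mock and 16.4, 24.3 and 30.6 CPM in the mannitol control. With at least 10 counts required in every library, 7 of the sulfur genes were called, since LSU1, LSU3 and others near 0 in mock then left the test.

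Aliphatic glucosinolate genes, which build the methionine-derived defence compounds, were higher in 15 of 17 tested cases and lower in 0 (list median 2.21 on the log2 scale). FMO GS-OX3, an oxygenase of the side chain, had 0.164, 0.814 and 0.164 CPM in mock and 9.76, 6.99 and 8.24 CPM in the mannitol control (log2 fold change 4.60, SE 0.40, adjusted p = 5.18e-06). BCAT4, the aminotransferase that starts methionine chain elongation, had 1.31, 16.6 and 3.2 CPM in mock and 41.7, 57.2 and 54.9 CPM in the mannitol control (log2 fold change 2.99, SE 0.76, adjusted p = 0.0374). Its groups did not overlap, but mock B was far above mock A. The elongation enzymes MAM1, IPMI1, IPMI2 and IMD1 had log2 fold changes of 2.21, 2.48, 2.22 and 2.08. MYB28, the main transcriptional regulator of the pathway, had 13, 22.1 and 13.7 CPM in mock and 33.8, 37.8 and 40.9 CPM in the mannitol control. For all 15 genes mock A was the lowest and mock B the highest mock library, with a median fold of 4.33 between them, beside 1.21 between the highest and lowest mannitol control library. The number of called genes depended on the libraries kept. It was 6 without mock C, 7 without mannitol control B, 9 without mannitol control C, 10 without mannitol control A, 11 without mock A and 17 without mock B.

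The tryptophan-derived indole branch did not share one direction, with 5 higher and 4 lower of 15 tested. CYP81F2, which modifies the indole ring during pathogen responses, fell from 173, 146 and 99 CPM in mock to 6.28, 5.07 and 6.48 CPM in the mannitol control (log2 fold change -4.55, adjusted p = 7.55e-05). IGMT5, a methyltransferase of the same branch, rose from 41.9, 68.4 and 53.5 CPM in mock to 569.6, 603 and 595 CPM in the mannitol control (log2 fold change 3.43, adjusted p = 7.52e-06). The MYB regulators of the branch were also split, with MYB34 at 2.22 and MYB51 at -2.89 on the log2 scale. PEN2, an atypical myrosinase needed for defence at the cell surface, had a log2 fold change of -1.03. NSP1, a nitrile specifier protein that directs the breakdown of glucosinolates, was among the 10 largest rises in CPM, with 301, 305 and 283 CPM in mock and 1908, 1739 and 1855 CPM in the mannitol control.

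**Figure D2:**
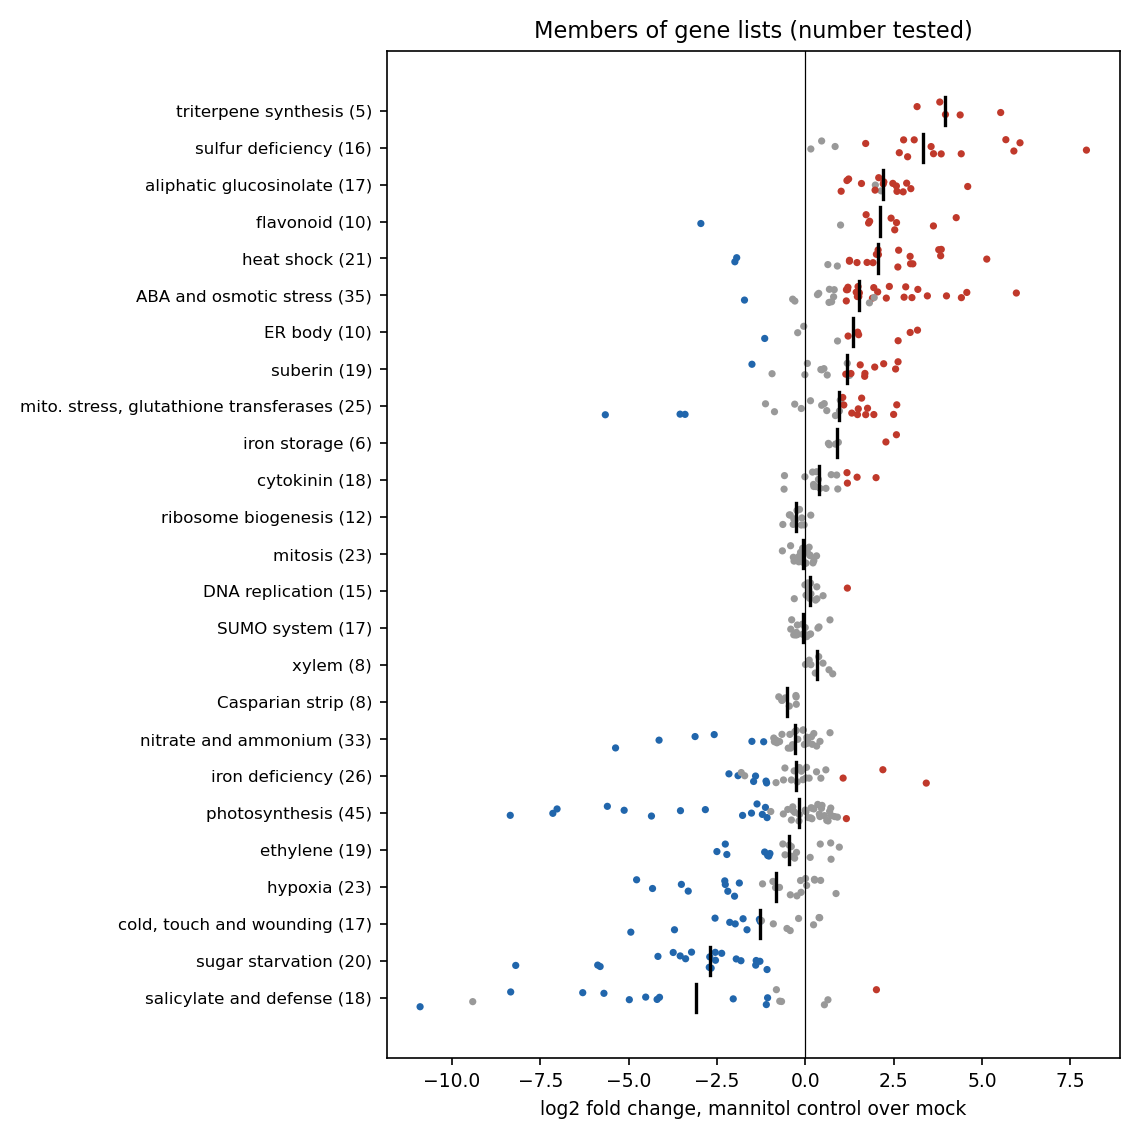
Log2 fold change (mannitol control over mock, x axis) of each tested member of the gene lists named on the y axis, with the number tested in parentheses; red and blue points are higher and lower DEGs, grey points are not DEGs and the black bar is the list's median. The triterpene synthesis, sulfur deficiency and aliphatic glucosinolate lists lie to the right of 0, the sugar starvation list lies wholly to the left, and the mitosis, SUMO system and xylem lists stand near 0 with no DEG. PBS3 and RBCS1B, with 0 counts in the mannitol control, are drawn at fitted values that are not bounds.

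The ABA and osmotic stress list had 23 of 35 tested genes higher and 1 lower in the mannitol control (list median 1.51 on the log2 scale). No mannitol had been added to these roots. KIN1, a small cold- and ABA-induced protein, had 3.28, 9.12 and 6.41 CPM in mock and 479, 327 and 382 CPM in the mannitol control (log2 fold change 5.97, SE 0.33, adjusted p = 0.000114). KIN2, its near-identical tandem neighbour, had 54.2, 60.2 and 49.4 CPM in mock and 1365, 989 and 1131 CPM in the mannitol control (log2 fold change 4.42, SE 0.14, adjusted p = 2.25e-07). LTI78, the classic desiccation-responsive gene also called RD29A, rose from 43, 40.5 and 38.9 CPM in mock to 439, 331 and 339.6 CPM in the mannitol control. All 3 genes were separated between groups by far more than the spread within either group.

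Their promoters are shown because KIN1, KIN2 and LTI78 were among the ABA genes with the largest changes between the untreated groups. AT3G15450, which fell, is added for comparison. Each sequence is the 250 bases before the annotated start on the plus strand of TAIR10.1, at chr5:5209467-5209716 for KIN1, chr5:5211469-5211718 for KIN2, chr5:21240467-21240716 for LTI78 and chr3:5212734-5212983 for AT3G15450. Capitals mark the ABA response element core (ACGTG or its reverse complement) and the dehydration response element core (CCGAC or its reverse complement).
KIN1: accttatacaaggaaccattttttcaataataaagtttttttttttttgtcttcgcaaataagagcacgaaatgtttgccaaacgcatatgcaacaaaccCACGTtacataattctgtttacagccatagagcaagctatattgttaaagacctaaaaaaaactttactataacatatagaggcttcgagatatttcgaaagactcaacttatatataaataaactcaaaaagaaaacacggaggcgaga
KIN2: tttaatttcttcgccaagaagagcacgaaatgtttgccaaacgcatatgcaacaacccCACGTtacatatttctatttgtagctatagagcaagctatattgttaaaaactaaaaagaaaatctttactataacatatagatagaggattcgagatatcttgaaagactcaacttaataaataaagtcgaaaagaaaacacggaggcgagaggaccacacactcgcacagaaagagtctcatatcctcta
LTI78: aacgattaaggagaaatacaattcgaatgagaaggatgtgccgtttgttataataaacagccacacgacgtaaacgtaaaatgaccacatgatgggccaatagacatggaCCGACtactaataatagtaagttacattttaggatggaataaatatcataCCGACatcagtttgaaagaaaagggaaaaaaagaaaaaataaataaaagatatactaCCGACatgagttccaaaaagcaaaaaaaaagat
AT3G15450: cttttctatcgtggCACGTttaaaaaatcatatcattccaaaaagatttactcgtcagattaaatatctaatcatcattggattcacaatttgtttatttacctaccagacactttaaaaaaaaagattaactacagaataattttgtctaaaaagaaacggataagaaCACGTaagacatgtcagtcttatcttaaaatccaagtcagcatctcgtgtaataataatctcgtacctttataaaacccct
KIN1 and KIN2 each held 1 ABA response element core, LTI78 held 3 dehydration response element cores and AT3G15450 held 2 ABA response element cores. The ABA response element core was in 13 of the 23 promoters of the higher ABA genes (56.5%) and in 23.8% of all 18926 promoters of this length. A high share was not particular to the ABA list. The same core was in 8 of 15 promoters of the higher aliphatic glucosinolate genes (53.3%) and 6 of 13 of the higher sulfur genes (46.2%). Other lists did not share this, with 4 of 17 for the higher heat shock genes and 1 of 11 for the lower salicylate and defence genes. The dehydration response element core was in 7 of 23 (30.4%), beside 12.9% of all promoters. Of the 20 lower sugar starvation genes, 6 (30%) held the ABA response element core, near the 23.8% of all promoters. The G-box CACGTG, which contains it, was in 2 (10%), near the 7.32% of all promoters. Among the 23 ABA promoters the G-box was in 4 (17.4%) and the evening element AAATATCT in 3 (13%), the latter beside 4.86% of all promoters. The phosphate starvation element GNATATNC was also in 3 (13%), beside 5.42% of all promoters. The sulfur response element core GAGAC was in 6 (26.1%), near the 25% of all promoters. The W-box TTGACC was in 0 of the 23, beside 12.3% of all promoters. A match in these windows is a description of letters and not of a bound site.

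Other members of the ABA list covered its whole course. NCED3, the enzyme that limits ABA synthesis, had a log2 fold change of 2.29, with 2.79, 3.26 and 1.4 CPM in mock and 9.84, 11.8 and 12.2 CPM in the mannitol control. CYP707A3, which degrades ABA, was the 1 lower member, at 19.2, 35.5 and 34.9 CPM in mock and 8.06, 7.64 and 11.8 CPM in the mannitol control (log2 fold change -1.72). The transcription factors ABF2, ABF3, DREB2A and RD26 were all higher, by 1.16, 1.49, 1.19 and 1.16 on the log2 scale. HB-12, a homeodomain factor induced by water deficit, had 0.493, 1.14 and 0.164 CPM in mock and 9.76, 7.35 and 7.6 CPM in the mannitol control. The phosphatases HAI1 and HAI3, which damp ABA signalling, rose by 2.84 and 2.05 on the log2 scale. P5CS1, which makes proline, rose by 1.21 while ERD5, which degrades proline, fell as given above on the log2 scale. The galactinol synthase GolS1, which feeds raffinose synthesis, rose by 3.45 on the log2 scale. COR15A, a chloroplast cold protein, rested on 2 counts over the mock group against 85, a ratio of 27.1 with an exact 95% interval of 7.27 to 227.

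Heat shock genes were higher in 17 of 21 tested cases and lower in 2. HSP70, a cytosolic chaperone, had 34.6, 35 and 29.8 CPM in mock and 403, 433 and 517 CPM in the mannitol control (log2 fold change 3.78, SE 0.11, adjusted p = 1.04e-08), with very little spread in either group. HSP90.1 had 21.5, 17.4 and 13.8 CPM in mock and 128, 125 and 149 CPM in the mannitol control. HSP101, the disaggregase needed for acquired heat tolerance, had a log2 fold change of 2.07, and the factor HSFA2 had 2.98. The 2 lower members were themselves heat shock factors, and 1 was lower without mock A, mock C, mannitol control B or mannitol control C. HSFA7A had 79.8, 42.3 and 61.4 CPM in mock and 13.8, 19.1 and 12.9 CPM in the mannitol control, and AT-HSFA7B had a log2 fold change of -1.94. The list of chaperones and folding enzymes of the endoplasmic reticulum held 1 DEG, as 1 of 13 tested ER stress genes was higher (ATERDJ3A, log2 fold change 1.49) and 0 were lower.

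Secondary metabolism beyond the glucosinolates was mostly higher in the mannitol control. All 5 listed genes from the thalianol and marneral triterpene clusters, which are expressed in roots, were higher (list median 3.97 on the log2 scale). The list does not cover the whole clusters. THAS1, thalianol synthase, had 14.9, 22.5 and 10.3 CPM in mock and 628, 714 and 776 CPM in the mannitol control (log2 fold change 5.53, SE 0.30, adjusted p = 0.000113). CYP708A2 and CYP705A5, its cytochrome P450 partners in the same cluster (THAS1 at chr5:19456837-19461706, CYP708A2 at chr5:19444103-19447866 and CYP705A5 at chr5:19434758-19436749), had log2 fold changes of 3.97 and 3.81. The marneral synthase MRN1 and its partner CYP71A16, which lie in another cluster on chromosome 5, had 4.38 and 3.16 on the log2 scale.

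Of 10 tested flavonoid genes, 8 were higher and 1 lower. TT4, the chalcone synthase that opens the pathway, had 535, 696 and 681 CPM in mock and 1902, 2279.8 and 2122 CPM in the mannitol control. FLS1, flavonol synthase, had 96.4, 176 and 141 CPM in mock and 744, 887 and 842 CPM in the mannitol control, and UGT78D1, which adds rhamnose to flavonols, had 1.81, 3.91 and 1.97 CPM in mock and 39.4, 53.7 and 49 CPM in the mannitol control (log2 fold change 4.27, SE 0.23, adjusted p = 8.68e-07). The 1 lower gene was MYBL2, a repressor of anthocyanin synthesis, with a log2 fold change of -2.96. Of 16 light-induced genes, 4 were higher (ELIP1, ELIP2, BBX30 and BBX31) and 1 lower (BBX28). The 4 became 2 without mock A or without mannitol control C.

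PYK10, the beta-glucosidase that fills the ER bodies of Brassicaceae roots, had 4033, 4037 and 4194 CPM in mock and 11032, 11057 and 12141 CPM in the mannitol control (log2 fold change 1.48, SE 0.06, adjusted p = 1.6e-08). It was the largest difference in mean CPM among the DEGs. The ER body list had 6 of 10 tested genes higher and 1 lower, and its summed level was 7763 to 8015 CPM in mock and 17481 to 19282 CPM in the mannitol control. NAI1, the transcription factor required for ER bodies, had 26.8, 28.7 and 26.4 CPM in mock and 166, 151 and 187 CPM in the mannitol control, and the PYK10-binding protein PBP1 had 883, 855 and 910.2 CPM in mock and 2561, 2314 and 2658 CPM in the mannitol control. The jacalin lectins JAL22 and JAL33 had log2 fold changes of 3.17 and 2.97, while BGLU21, a relative of PYK10, fell by 1.15 on the log2 scale.

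Suberin, the polyester that seals the endodermis, had 9 of 19 tested genes higher and 1 lower. The regulators MYB39 and MYB41 had log2 fold changes of 2.62 and 2.55, and MYB93, another regulator, had -1.51. FAR1, which makes the fatty alcohols of suberin, had 3.78, 3.58 and 4.52 CPM in mock and 18.8, 18.8 and 19.1 CPM in the mannitol control. In contrast, 0 of 8 Casparian strip genes were DEGs (list median -0.51 on the log2 scale), though 7 passed the adjusted p alone, all lower. The summed level of the list was 514 to 553 CPM in mock and 350.1 to 386 CPM in the mannitol control. Lipid transfer proteins, chosen by product name, had 23 of 50 higher and 4 lower, with AT4G12490 and AT4G12500, neighbours of similar sequence, at 4.55 and 4.29 on the log2 scale. Of 17 phenylpropanoid and lignin genes, 3 were higher (PAL1, CCR1 and CAD5) and 0 lower. The 3 became 5 without mock B and 2 without mock A, mock C, mannitol control B or mannitol control C. Outside these lists, the laccase LAC12 had 2.3, 0.814 and 0.246 CPM in mock and 40.1, 41 and 42.9 CPM in the mannitol control.

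Most genes of the salicylate and defence list were lower in the mannitol control. Of 18 tested members, 11 were lower and 1 higher (list median -3.08 on the log2 scale). The summed level of the list was 514 to 1459 CPM in mock and 484 to 536 CPM in the mannitol control, ranges that overlap. CBP60G, a calmodulin-binding factor that turns on salicylate synthesis, had 98, 183 and 41.3 CPM in mock and 0.339, 0.285 and 0.32 CPM in the mannitol control (log2 fold change -8.34, SE 1.12, adjusted p = 0.00529). PBS3, the GH3 enzyme of the same route, had 27.1, 35.3 and 8.79 CPM in mock and 0 counts in all 3 mannitol control libraries, at least 256-fold lower when the group is set at a floor of 3 counts (adjusted p = 0.0456). CYP71A12, a P450 of camalexin and indole carbonyl nitrile synthesis, had 168, 403 and 56.2 CPM in mock and 2.21, 2.14 and 3.52 CPM in the mannitol control (log2 fold change -6.30, SE 1.11, adjusted p = 0.0129). In these 3 genes mock B was the highest and mock C the lowest mock library, and every mock library lay above every mannitol control library.

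The upstream and downstream genes of the same response varied. SARD1, the partner of CBP60G, had a log2 fold change of -4.20, and EDS16, the isochorismate synthase both regulate, had -1.10. ALD1 and FMO1, which make the systemic signal N-hydroxypipecolic acid, had -4.13 and -5.70 on the log2 scale. WRKY70 and WRKY38 had -4.98 and -4.52 on the log2 scale. FRK1, the receptor kinase used as a marker of flagellin sensing, had 8.05, 7.16 and 9.04 CPM in mock and 2.38, 1.36 and 2.24 CPM in the mannitol control. The 1 higher gene was EDS5, the carrier that exports isochorismate from plastids, with 17.1, 19.4 and 15.1 CPM in mock and 68.2, 65.3 and 71.9 CPM in the mannitol control. Over the 11 lower genes, mock C was the lowest mock library for 9 and the median fold between the highest and lowest mock library was 3.01, beside 1.41 in the mannitol control. The count of lower genes was 8 to 12 without any 1 library and 5 when at least 10 counts were required in every library.

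Several of the largest single changes stood outside the list and were of related kinds. PEN3, an ABC transporter that exports defence compounds, had 1268, 1127 and 1049.6 CPM in mock and 249, 231 and 247 CPM in the mannitol control (log2 fold change -2.24, SE 0.08, adjusted p = 8.7e-09). HIR2, a membrane protein of the hypersensitive-induced reaction family, had 1067, 1147 and 1006 CPM in mock and 132, 90.1 and 108 CPM in the mannitol control. PLA2A, a phospholipase induced by pathogens, had 152, 178 and 56.6 CPM in mock and 1.61, 0.428 and 1.04 CPM in the mannitol control, and the berberine bridge family member AT1G26390 had 104, 339 and 21.3 CPM in mock and 0.509, 0.999 and 0.88 CPM in the mannitol control. PEN3 and HIR2 differed little among the mock libraries, whereas PLA2A and AT1G26390 were lowest in mock C as the salicylate genes were. ARI12, a RING protein, rested on 1 count over the mannitol control against 293 in mock, a ratio of 460 with an exact 95% interval of 81.9 to 18220. Receptor-like kinases, chosen by product name, had 59 of 263 tested genes lower and 5 higher. The higher count was 10 without mock B and 3 without mannitol control C.

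**Figure D3:**
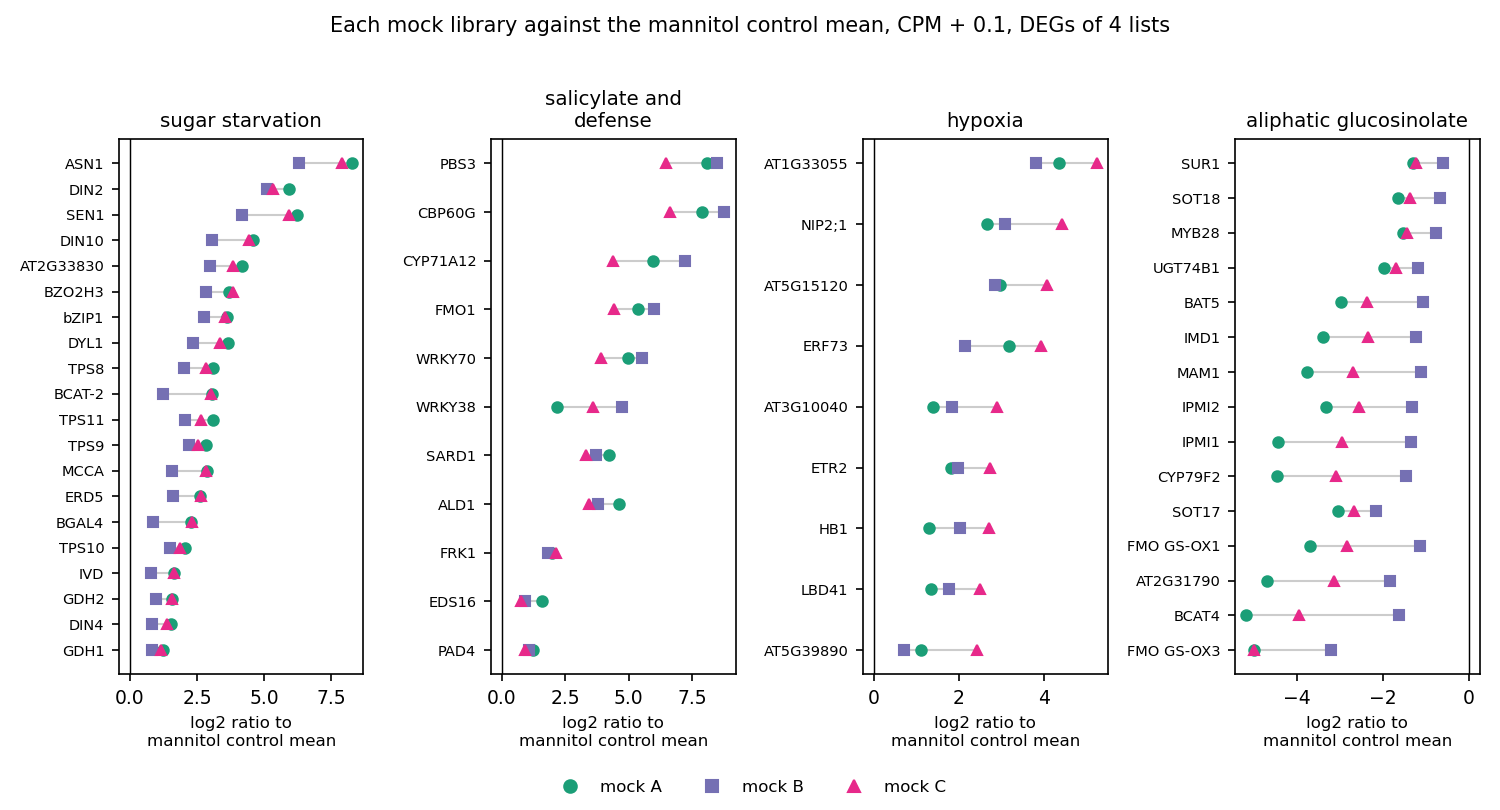
Each mock library (symbol) set against the mannitol control mean, as a log2 ratio of CPM + 0.1 (x axis), for the lower DEGs of the sugar starvation, salicylate and defence, and hypoxia lists and the higher DEGs of the aliphatic glucosinolate list (y axis, 1 gene a row). Mock B stands nearest to 0 in all 20 sugar starvation genes and in all 15 glucosinolate genes, whereas mock C stands nearest in 9 of the 11 defence genes and farthest in all 9 hypoxia genes.

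The list of cold, touch and wounding genes had 9 of 17 tested members lower and 0 higher. It does not stand for cold-induced genes in general. KIN1, KIN2 and COR15A, also cold-induced, were placed on the ABA list and were higher, as given above. TCH3, a calmodulin-like protein induced by touch, had 75, 47.2 and 46.2 CPM in mock and 2.04, 1.57 and 1.84 CPM in the mannitol control (log2 fold change -4.94, SE 0.26, adjusted p = 3.32e-06). TCH4, a xyloglucan endotransglucosylase of the same original screen, had a log2 fold change of -1.28. The factors WRKY46, STZ, ERF6 and WRKY33 had -3.70, -2.14, -1.98 and -1.76 on the log2 scale.

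Hypoxia genes were lower in 9 of 23 tested cases and higher in 0. AT1G33055, an uncharacterized member of the core hypoxia set, had 14.3, 9.77 and 26.4 CPM in mock and 0.424, 1.21 and 0.16 CPM in the mannitol control (log2 fold change -4.78, SE 0.66, adjusted p = 0.00257). NIP2;1, a lactic acid channel of the aquaporin family, had 1.31, 1.79 and 4.68 CPM in mock and 0.0849, 0.285 and 0 CPM in the mannitol control, and ERF73 (HRE1), an ethylene response factor of low oxygen, had 52.4, 25.6 and 88.3 CPM in mock and 5.86, 6.14 and 5.04 CPM in the mannitol control. In all 9 genes mock C was the highest mock library. ADH1, the alcohol dehydrogenase most used as a marker of hypoxia, was not a DEG, with 27.9, 24.7 and 72.2 CPM in mock and 38.8, 28.9 and 29.2 CPM in the mannitol control, which overlap. Without mock B, 12 of the hypoxia list were lower, and without mannitol control A 7 were. Ethylene genes were lower in 7 of 19 cases and higher in 0. ETR2, a receptor that ethylene itself induces, and EFE, the ACC oxidase that makes ethylene, had log2 fold changes of -2.27 and -1.07.

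Nutrient genes did not move as one. Of 33 tested nitrate and ammonium genes, 6 were lower and 0 higher. BT1 and BT2, scaffold proteins that limit nitrate uptake and respond to nitrate and sugar, were the leading members. BT1 had 509.9, 125 and 436 CPM in mock and 8.06, 10.4 and 7.28 CPM in the mannitol control (log2 fold change -5.37, SE 0.73, adjusted p = 0.00576), with mock B lowest. NRT1.8, which removes nitrate from the xylem sap, had a log2 fold change of -3.12, and the nitrate reductase NIA1 had -1.51.

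Among metals, FRO4, a copper-regulated ferric and cupric reductase, had 121, 260.0 and 123 CPM in mock and 17.1, 10.5 and 11.2 CPM in the mannitol control (log2 fold change -3.70, SE 0.47, adjusted p = 0.00391). Its neighbour FRO5, of near-identical sequence, and the copper importer COPT2 had log2 fold changes of -2.76 and -1.96, while CSD1, a copper superoxide dismutase, rose by 1.83. Of 20 copper and zinc genes, 5 were lower and 1 higher. Iron deficiency genes had 6 lower and 3 higher of 26, with the importer IRT1 at 280.0, 399.9 and 257 CPM in mock and 129, 101 and 109 CPM in the mannitol control and the nicotianamine synthase NAS2 at a log2 fold change of 3.42. The 6 became 4 without mannitol control B and 3 without mannitol control C. Of 6 iron storage genes, 2 were higher (AT1G21140 and AT1G76800, both of the vacuolar iron transporter family), with 2.28 and 2.58 on the log2 scale.

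Phosphate starvation genes had 5 higher and 2 lower of 23 (list median 0.04 on the log2 scale). Their summed level was lower, at 1755 to 1804 CPM in mock and 1217 to 1329 CPM in the mannitol control. RNS1, a ribonuclease induced by phosphate limitation, had a log2 fold change of 4.57, and the phosphate importers PHT1;1 and PHT1;2, near-identical neighbours, had -1.11 and -1.32. The 5 became 3 without mock A. SKOR, the channel that loads potassium into the xylem, had 153, 105 and 135 CPM in mock and 11.3, 11.8 and 12.8 CPM in the mannitol control (log2 fold change -3.45, adjusted p = 3.09e-07). HKT1, which retrieves sodium from the xylem, had 2.3, 2.28 and 2.63 CPM in mock and 18.1, 19 and 19.4 CPM in the mannitol control (log2 fold change 2.94, adjusted p = 9.59e-08). The boron exporter BOR1 had -1.81 on the log2 scale. Aquaporins had 4 lower and 2 higher of 23, with TIP2, a tonoplast channel, among the 10 largest falls in CPM at 1964, 1283 and 1844 CPM in mock and 846, 818 and 843 CPM in the mannitol control, and PIP2;5 higher by 2.65 on the log2 scale.

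Glutathione transferases and mitochondrial stress genes had 11 higher and 3 lower of 25. GSTF6 and GSTF7, near-identical neighbours induced in defence, and GSTF3 were the lower members, with log2 fold changes of -3.40, -3.55 and -5.66. GSTU5 and GSTU25, of the tau class that detoxifies reactive compounds, were higher by 2.59 and 1.94 on the log2 scale. The 3 lower members became 6 without mock C. OPR1, an oxophytodienoate reductase, was among the 10 largest rises in CPM at 297, 371 and 208 CPM in mock and 1206, 1339.9 and 1327 CPM in the mannitol control. Cytochromes P450 by product name had 35 higher and 19 lower of 145. CYP710A3, of a family of sterol desaturases, had 11.7, 13.4 and 17.1 CPM in mock and 0 counts in all 3 mannitol control libraries, at least 189-fold lower at the same floor.

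Cell wall families were mixed. Pectin modifying enzymes had 24 higher and 10 lower of 104, and xyloglucan endotransglucosylases had 7 higher and 4 lower of 24, the 4 becoming 2 without mock A or without mannitol control C. Expansins, which loosen walls, had 6 higher and 0 lower of 20, with EXPA10 at 3.81 and EXPA4 at 1.69 on the log2 scale. Class III peroxidases had 13 lower and 5 higher of 56. AT5G64100, a peroxidase among the 10 largest falls in CPM, had 2512, 1739 and 2635 CPM in mock and 679, 596 and 674 CPM in the mannitol control, while the 5 higher members were 9 without mock B. Extensins and proline-rich proteins had 6 higher and 9 lower of 136, and arabinogalactan proteins 2 higher and 0 lower of 39. Of 32 root hair genes, 3 were lower (XTH26, EXT12 and RSL2) and 1 higher (XTH13), and the 3 became 1 without mannitol control C. The 1 higher became 0 without mock A, mock C, mannitol control A or mannitol control B. Major latex and germin-like proteins had 6 higher and 1 lower of 14. GRP9, a glycine-rich protein, was among the largest rises in CPM at 238, 324 and 256 CPM in mock and 1576, 1545 and 1859 CPM in the mannitol control.

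Among hormones, the jasmonate list had 4 higher and 0 lower of 16. VSP2, a vegetative storage phosphatase, rested on 2 counts over the mock group against 211, a ratio of 67.2 with an exact 95% interval of 18.4 to 559. The 4 became 5 without mock B and 2 without mock C or without mannitol control C. Cytokinin genes had 4 higher (CKX4, ARR6, ARR7 and IPT3) and 0 lower of 18. Auxin genes had 2 higher and 1 lower of 26, the lower being BRU6, an auxin-conjugating GH3 enzyme, with 95.9, 85.5 and 58.1 CPM in mock and 7.72, 8.92 and 7.52 CPM in the mannitol control. Gibberellin and brassinosteroid genes had 3 higher (GA20OX2, GA20OX3 and GA3OX2, all of gibberellin synthesis) and 1 lower of 28. The clock lists had 3 lower of 14 (morning) and 2 lower of 15 (afternoon and evening), with 0 higher in either. For the auxin, gibberellin, extensin, root hair and afternoon and evening clock lists, the share of DEGs in either direction was near the 13.4% of all tested genes.

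Lists of growth genes and of most cell type markers held few DEGs. Of 23 mitosis genes 0 were DEGs, of 15 DNA replication genes 1 was higher (CYCD3;1, a cyclin that starts the cell cycle), and of 12 ribosome biogenesis genes 0 were DEGs. Of the DNA replication genes, 13 had a fitted log2 fold change above 0 (list median 0.12). They summed to 422 to 456 CPM in mock and 490 to 514 CPM in the mannitol control, without overlap. Of the ribosome biogenesis genes, 11 had a fitted log2 fold change below 0 (list median -0.26). The adjusted p alone was passed by 7, all lower. Their summed level was 2747 to 2910 CPM in mock and 2220 to 2380 CPM in the mannitol control, ranges that did not overlap. Among 289 ribosomal proteins, chosen by product name with those named for organelles left out, 1 was higher (AT2G27535, of the L10A family) and 1 lower. The lower one, AT5G24490, is annotated as a 30S protein, a bacterial-type subunit and not a cytosolic one, at a log2 fold change of -2.58. Among 41 histones 0 were DEGs, though 11 lower and 4 higher passed the adjusted p alone. The histones summed to 3202 to 3370 CPM in mock and 2972 to 3068 CPM in the mannitol control, without overlap. The markers of xylem (8 tested), phloem (8) and non-hair epidermis (4) held 0 DEGs. All 4 epidermis markers had a fitted log2 fold change below 0 (list median -0.45). They summed to 54.2 to 59.9 CPM in mock and 40.5 to 46.7 CPM in the mannitol control. Phloem markers were split, 5 above 0 and 3 below (list median 0.13). Their sum was 152 to 153 CPM in mock and 192 to 207 CPM in the mannitol control. Neither pair of ranges overlapped. All 8 xylem markers had a fitted log2 fold change above 0 (list median 0.33), and 4 passed the adjusted p below the fold limit. Their summed level was 398 to 438 CPM in mock and 496 to 563 CPM in the mannitol control, ranges that did not overlap. Root cap markers had 2 lower of 6, AT1G65570 and SMB (1 without mannitol control C), and their summed level was 89.3 to 111 CPM in mock and 45.3 to 63.8 CPM in the mannitol control. SMB, a NAC factor of cap maturation, had 15.6, 15 and 14.2 CPM in mock and 9.76, 6.14 and 4 CPM in the mannitol control. Among meristem markers WOX5, which marks the quiescent centre, was higher by 1.24 on the log2 scale. UPB1, which sets the transition to elongation, was lower at -1.06, a call lost without mock B or without mannitol control C. Of 12 tested meristem markers, 10 had a fitted log2 fold change below 0 (list median -0.39). The adjusted p alone was passed by 6 lower and 2 higher markers. The summed level of the list was 279 to 296 CPM in mock and 217 to 227 CPM in the mannitol control, ranges that did not overlap. Of 17 tested genes of the SUMO system, the subject of the study, 0 were DEGs (list median -0.08 on the log2 scale). The list held 18 genes and left out other components that the study covers. The adjusted p alone was passed by 5 lower genes and 1 higher gene. The list summed to 725 to 739 CPM in mock and 690 to 715 CPM in the mannitol control, without overlap. UBQ10, a polyubiquitin gene often used as a reference, was itself a DEG, at 2289, 2303 and 2169 CPM in mock and 1106, 1031 and 1084 CPM in the mannitol control (log2 fold change -1.07, SE 0.06, adjusted p = 1.47e-07).

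Photosynthesis genes were low in all libraries, yet 14 of 45 tested were lower and 1 higher (NPQ4, the PsbS protein of photoprotection, log2 fold change 1.16). The higher count was 5 without mock C. RBCS1B, a small subunit of Rubisco, had 3.61, 3.58 and 4.35 CPM in mock and 0 counts in the mannitol control, at least 50.7-fold lower at the floor of 3 counts. RBCS3B, its near-identical neighbour, had 11, 13 and 14.9 CPM in mock and 0.17, 0.785 and 0.08 CPM in the mannitol control, and the carbonic anhydrase CA1 rested on 1 count against 144. RBCS1A, a small subunit gene on another chromosome, was not a DEG, with 26.6, 41.8 and 38.3 CPM in mock and 20.6, 36 and 27.4 CPM in the mannitol control. The summed level of the list was 517 to 718 CPM in mock and 597 to 662 CPM in the mannitol control, ranges that overlap. With at least 10 counts required in every library, 4 were lower.

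The salt and mannitol libraries were not used to choose these DEGs and give a separate look at them, although treatment and set-up differ together there. Between mannitol and salt, 1429 of 18482 tested genes (7.73%) were DEGs, 766 (4.14%) higher and 663 (3.59%) lower in mannitol. Of the genes higher in the mannitol control, 1170 were tested in this comparison, of which 376 (32.1%) were higher in mannitol than in salt and 38 (3.25%) lower. Of the lower genes, 1054 were tested, of which 252 (23.9%) were lower in mannitol and 22 (2.09%) higher. The median mannitol over salt change was 0.64 for the former and -0.47 for the latter on the log2 scale.

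The gene lists differed in this respect. Of the higher sulfur genes, 10 of 13 were also higher in mannitol than in salt, with a median log2 fold change of 1.83, and of the higher aliphatic glucosinolate genes 10 of 14, with 1.96. Of 17 heat shock genes 14 were higher, with a median of 1.74. Of 23 ABA genes 7 were higher, with 0.45. Of the 20 sugar starvation genes 2 were lower, with a median of -0.17. The triterpene genes went the opposite way, with 2 of 5 lower in mannitol than in salt and a median of -1.97. Of the 5 lower copper and zinc genes 3 were lower in mannitol. Of the 9 lower genes of the cold, touch and wounding list 0 were DEGs in either direction.

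**Figure D4:**
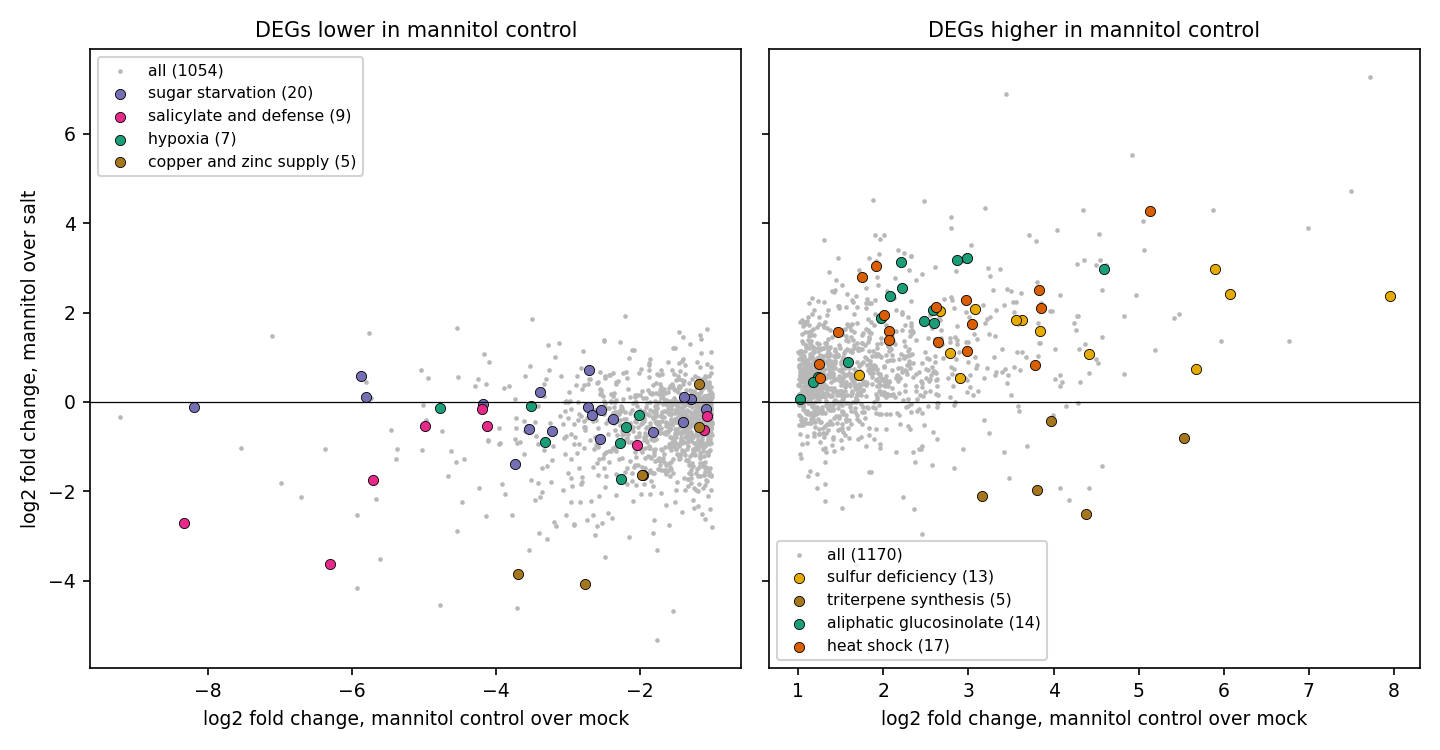
Log2 fold change of mannitol over salt (y axis) against that of the mannitol control over mock (x axis) for the lower DEGs (left) and the higher DEGs (right) that were tested in both; grey points are all such genes and coloured points are members of the lists in the legend. Sulfur deficiency, aliphatic glucosinolate and heat shock genes lie above 0 on the y axis, sugar starvation genes lie around 0 and the 5 triterpene genes below it.

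Values in all 5 groups, on a scale set over the 15 libraries, show the same genes beside their treatments. ASN1 was at 102, 25.7 and 78.2 CPM in mock and 0.409, 0.069 and 0.23 CPM in the mannitol control. It was at 118, 169 and 147 CPM in flg22, 187, 172 and 79.8 CPM in salt and 145, 131 and 137 CPM in mannitol. The mannitol control was the only one of the 5 groups with ASN1 near 0. DIN10, of the same list, had another pattern. It was at 124, 110.4 and 50.8 CPM in the untreated mannitol control, and the treated groups overlapped with that, at 203, 102 and 172 CPM with mannitol and 177, 210.0 and 101 CPM with salt. Mock, at 2225, 785 and 2040.3 CPM, and flg22, at 1603, 2589 and 2258 CPM, lay above all of them. LSU2 was at 55.7, 65.1 and 80.5 CPM in the untreated mannitol control. With mannitol it was at 47.2, 26.6 and 45.4 CPM, against 0.311, 2.31 and 0.858 CPM in mock, 1.53, 0.235 and 1.05 CPM in flg22 and 5.99, 4.87 and 4.19 CPM in salt. For LSU2, then, both groups of the mannitol experiment lay above all 9 libraries of the other experiment.

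THAS1 was at 606, 690.5 and 743 CPM in the mannitol control but at 32.1, 19 and 23.6 CPM in mannitol, beside 14.2, 21.3 and 9.75 CPM in mock and 33.2, 17.8 and 78.9 CPM in salt. HSP70 was at 32.8, 33.1 and 28.3 CPM in mock and 41.2, 29.7 and 22.7 CPM in flg22. It was at 543, 441 and 366 CPM in salt, a range that overlaps the 389, 419 and 495 CPM of the untreated mannitol control. KIN2 in the mannitol control, at 1316, 956 and 1083 CPM, was below its level in salt, at 1957, 1794 and 1387 CPM, and far above mock, at 51.4, 57 and 46.9 CPM. CBP60G was at 134, 128 and 169 CPM in flg22, a range that lies within that of untreated mock, at 92.9, 173 and 39.2 CPM. Its level in salt was 3.8, 5.7 and 1.17 CPM and in the mannitol control 0.327, 0.276 and 0.306 CPM.

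**Figure D5:**
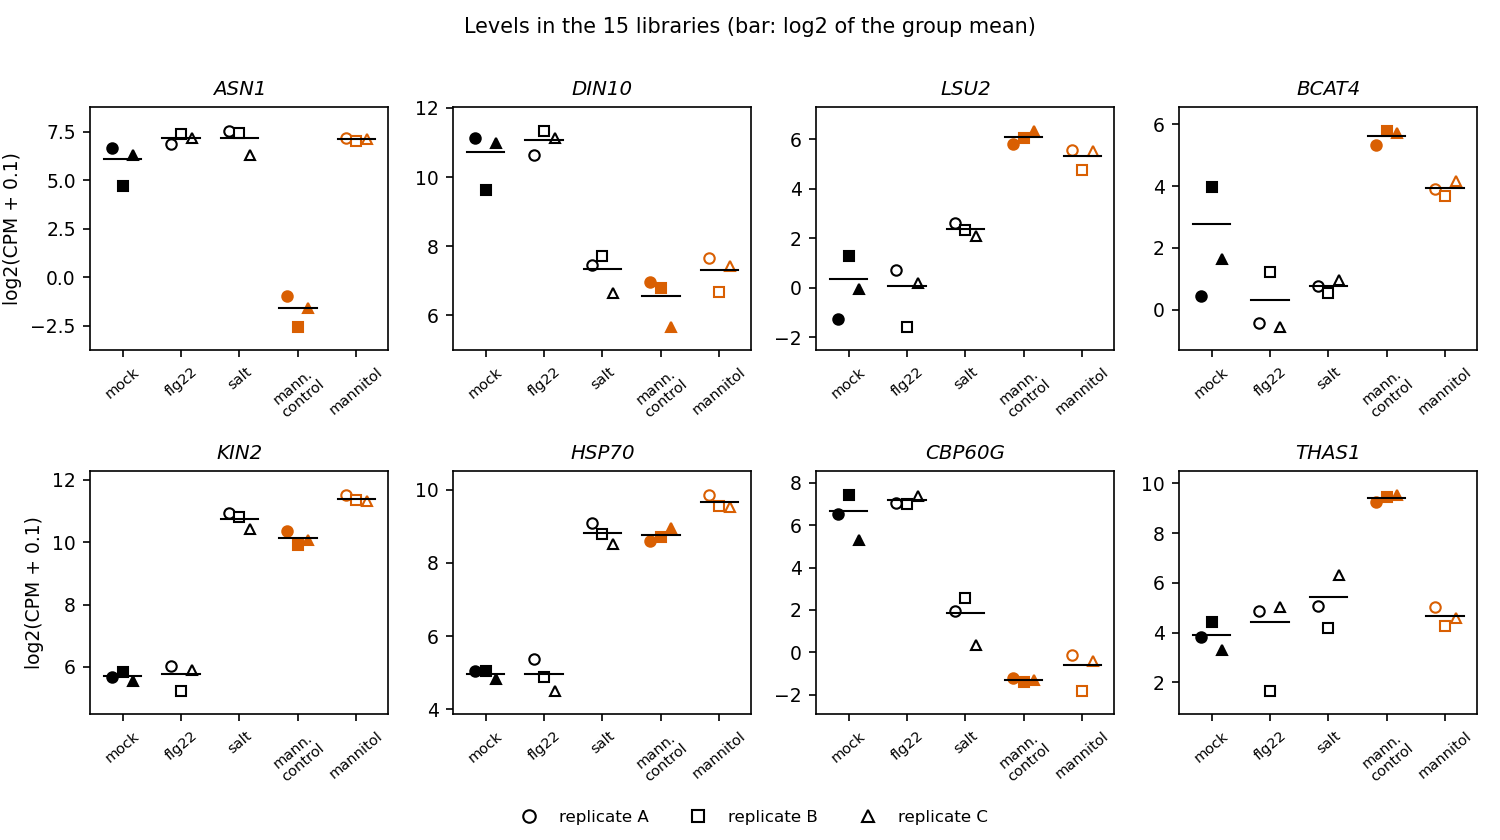
Levels of 8 genes in the 15 libraries, as log2(CPM + 0.1) on the 15-library scale (y axis) by group (x axis); symbols are libraries A, B and C and bars are the log2 of the group mean. ASN1 is near 0 CPM in the mannitol control and at 131 to 145 CPM in mannitol, whereas LSU2 is high in both groups of the mannitol experiment and low in the other 3.

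The flg22 libraries share neither treatment nor samples with the untreated groups and were taken with mock as their control. Their mean was nearer to mock than to the mannitol control for 1218 of the 1249 higher DEGs (97.5%) and for 1265 of the 1285 lower DEGs (98.4%), measured on log2(mean CPM + 1). Since mock values entered both the choice of genes and this distance, the shares are a description of where the flg22 libraries lie.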

How the data were processed

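RNA from roots was sequenced from polyadenylated, nonstranded libraries. According to the methods of the study, the authors used Trimmomatic for trimming, Araport11 as the reference, Picard to drop duplicate reads and HTSeq for the counting, with versions and options not given in the sources used here. The deposited values are raw counts per gene with no normalization. Without strand, reads of overlapping genes cannot be told apart, and genes with close copies (KIN1 and KIN2, the LSU genes, FRO4 and FRO5, GSTF6 and GSTF7, RBCS genes) are uncertain. Discarding duplicates caps the counts of abundant genes. The columns of the mannitol control were matched by their distinct name, the only other untreated group in the labels.

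The 3 mock and 3 mannitol control libraries (6094503 to 13943645 counts) entered edgeR 4.0.16 in R 4.3.3 with TMM scaling, filterByExpr at a minimum count of 10 and the robust quasi-likelihood test, with Benjamini-Hochberg adjustment over all tested genes. DEGs passed an adjusted p of 0.05 and moved by 1 or more on the log2 scale. The 3 salt and 3 mannitol libraries were fitted in the same way. On counts simulated for the 18927 genes of the untreated comparison, 93% of genes changed 2.5-fold and 100% of those changed 4-fold were recovered, with 1.53% false calls. Only 100 genes were changed at each fold, and genes of very low CPM were not among them. Both groups had the same simulated dispersion, whereas the median coefficient of variation of DEGs was 23.6% in mock and 13.9% in the mannitol control. These rates thus do not cover the low genes or the wider spread of mock. Gene lists were described by counts and medians without a set test. The members and lists were chosen with earlier results of these data known. Named genes were the 10 largest rises and falls by fold change (mean of at least 5 CPM, groups not overlapping) and by CPM, and up to 4 DEGs with the largest fold change in each list. Further list members named to complete a pathway were chosen after their values were seen, as were the 4 promoters and the 8 genes shown in all groups. Symbols, transcripts and promoter sequence came from RefSeq's TAIR10.1 assembly and were matched by gene ID. Promoters were the 250 bases before each annotated start, searched on both strands. Alternatives were DESeq2 1.42.0, other scalings, filters and fold limits, an offset for length and GC content, thinning to 6094503 counts, a replicate block, and leaving out each library.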

Additional observations from a re-analysis of the deposited data

How the results depend on the processing

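The 2534 DEGs depended mainly on the fold limit. A linear fold of at least 1.5 gave 4427 (2264 higher and 2163 lower in the mannitol control), and no fold limit gave 8050 (3963 higher and 4087 lower). DESeq2 gave 2491 with 2442 shared, its size factors 2544, upper-quartile scaling 2537, no count filter 2730, the length and GC offset 2532, thinning 2287 and a fit of all 15 libraries 2692. At least 10 counts in every library left 17145 genes tested and 1822 DEGs, 840 higher and 982 lower. Leaving out 1 library gave 2366 to 2807 DEGs, 1155 to 1454 higher and 1186 to 1353 lower, and for salt against mannitol 1225 to 1533. Of 192 named genes, 123 could be tested in all 18 alternatives, of which 103 stayed past the threshold in each. Counting only the alternatives in which a gene was tested, 160 of the 192 stayed past it throughout, and 0 reversed.

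The letters A, B and C did not pair the libraries of the untreated groups, since deviations of same-letter libraries correlated at 0.01, -0.06 and -0.07. With the replicate block there were 2459 DEGs, 1214 higher and 1245 lower, with 2418 shared, and 1432 between mannitol and salt. Library A of each untreated group correlated best with its own letter, and B and C did not.

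Depth limits the low genes. The floor of 3 counts, a chosen limit, was 0.492 CPM in mock A and 0.215 CPM in mannitol control B on library totals. Levels below it rest on fewer than 3 counts in a library and are uncertain. Short transcripts were slightly higher in the mannitol control, at a median of 0.11 on the log2 scale in the shortest of 5 length bins and -0.08 in the longest.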

Other observations

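Some of the largest changes belonged to none of the groups above. GolS4, a galactinol synthase, had 0.164, 1.14 and 0.246 CPM in mock A, B and C and 27.2, 13.3 and 19.3 CPM in mannitol control A, B and C (log2 fold change 5.41, SE 0.56, adjusted p = 0.000381). BGLU24, a beta-glucosidase, had 0.493, 0.488 and 0.164 CPM in mock and 18.4, 18.3 and 16.6 CPM in the mannitol control. AT5G16980, annotated as a zinc-binding dehydrogenase, had 0.164, 0.814 and 0.246 CPM in mock and 10.9, 12.3 and 15 CPM in the mannitol control. All 3 had at most 7 counts in any mock library.

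Among the genes that fell, AT5G25260, of the same SPFH domain family as HIR2, had 30.9, 63.5 and 10.5 CPM in mock and 0.424, 0.143 and 0.32 CPM in the mannitol control. AT1G33840, a LURP-one-like protein, rested on 2 counts over the mannitol control against 271 in mock, a ratio of 213 with an exact 95% interval of 58.3 to 1764. AT2G23270, an uncharacterized protein, rested on 3 counts against 227, a ratio of 119 with an interval of 40.1 to 580.0. AT5G26280, a TRAF-like protein, had 1692, 1313 and 1859 CPM in mock and 610.0, 587 and 681 CPM in the mannitol control and was among the 10 largest falls in CPM. The lectin JAL34 was among the 10 largest rises, with 1155, 892 and 1027 CPM in mock and 2193, 1945 and 2169 CPM in the mannitol control.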
